A study of Mus musculus with 4 samples.

Results

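Promoters that carried an H3K27ac peak in every one of the 4 sorted cell populations of this study formed a set of 12763 regions. H3K27ac peaks of the 4 lists were merged wherever they overlapped by at least 1 bp, which gave 62558 union regions on chromosomes 1 to 19, X and Y, and 16548 of these held a peak of all 4 lists. A region was counted here when it also overlapped the window from 2000 bp upstream to 500 bp downstream of an annotated start site of a protein-coding gene in GRCm39. The 12763 regions made up 20.4% of all union regions, 64.1% of the 19907 union regions at promoters and 77.1% of the regions with peaks in all 4 lists. Presence of a peak in all 4 lists chose the regions, so that presence is no result.

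The study sorted EGFP+ and EGFP- cells from limbs and from trunks of E14.5 mouse fetuses and profiled H3K27ac by ChIP-seq in each population. All 4 populations came from male fetuses made by tetraploid complementation of 1 homozygous Col2a1-EGFP clone of G4 embryonic stem cells, so all of them carry the same sensor cassette, a minimal beta-globin promoter with EGFP placed upstream of Col2a1. Limbs comprised stylopod, zeugopod and autopod, trunks ran from neck to tail without the internal organs, and cells of several fetuses were pooled. The EGFP+ cells are those in which the Col2a1 locus drives EGFP, and the EGFP- cells hold every other cell type of the same tissue together. There was 1 library per population, so no comparison carries a replicate error and no test was made.

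The reads behind each summit were recovered as whole numbers from its deposited fold and -log10 p, for 100% of summits. The level of a region in a population is the number of reads at its strongest summit, the one of highest -log10 p, divided by the library-wide background of the same library. That background was 1.49, 1.63, 1.60 and 1.83 reads in limb EGFP+, limb EGFP-, trunk EGFP+ and trunk EGFP- cells, the order used throughout. In a bulk population, fewer cells with the mark and less mark per cell cannot be told apart. The limb and the trunk libraries carry different lane labels, so a difference of tissue and one of lane cannot be told apart either. The trunk EGFP- sample is labelled replicate 1, but the names of its peaks say replicate 2. Read lengths and sonicators differed within the study without being assigned to libraries, and their part in the values was not tested.

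H3K27ac marks nucleosomes at active promoters and enhancers. At an active promoter the start site itself is usually kept free of nucleosomes, and the acetylated nucleosomes flank it on both sides. Promoters of genes that every cell needs, such as those for translation, respiration and splicing, are typically rich in CpG dinucleotides and lack a TATA box, and many are shared by a pair of genes transcribed away from each other.

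Sequences of promoters from the set are shown to make these features visible. They were read from the GRCm39 genome in the direction of the gene, and only bases outside every annotated exon are printed. Capitals mark the motifs that were searched on both strands. These were the TATA box (TATAAA), the CCAAT box (CCAAT), the GC box (GGGCGG), and the cores of ETS factors (CCGGAAG), of the cAMP response element (TGACGTCA), of NRF1 (GCGCATGCG), ZBTB33 (TCTCGCGAG), YY1 (AAGATGGCG) and ZFP143 (ACTACAA), with an E-box (CACGTG) and a SOX half-site (ACAATGG). Kmt2e, a chromatin regulator, had the region of highest level in its weakest population, and 21 bases before its start site were free of exons, 101 bp from that region (chr5:23639397-23639417, plus strand). The stretch between the start sites of Brd2, a reader of acetylated histones, and H2-DMa comes from the strongest divergent pair, 159 bp from its marked region (chr17:34341746-34341795, shown on the plus strand).
Kmt2e: gcgcttgccgccgccgccgcc
Brd2 and H2-DMa: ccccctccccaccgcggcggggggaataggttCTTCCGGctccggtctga
The next 4 promoters were chosen after the motif shares were seen. Each is the promoter of highest level in its weakest population, among genes with a region of their own, whose exon-free bases hold the ETS core, the NRF1 core, the ZBTB33 core or the cAMP response element. Cops3 encodes a subunit of the COP9 signalosome (chr11:59730715-59730864, minus strand). Snrnp70 encodes a protein of the U1 spliceosome particle (chr7:45045170-45045319, minus strand). Psmb2 encodes a core proteasome subunit (chr4:126571273-126571422, plus strand), and its cAMP response element overlaps a reversed CCAAT box. Oxa1l encodes an insertase of the inner mitochondrial membrane (chr14:54598121-54598270, plus strand).
Cops3: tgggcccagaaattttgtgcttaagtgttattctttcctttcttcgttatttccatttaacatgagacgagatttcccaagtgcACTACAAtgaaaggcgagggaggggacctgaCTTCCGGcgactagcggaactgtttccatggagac
Snrnp70: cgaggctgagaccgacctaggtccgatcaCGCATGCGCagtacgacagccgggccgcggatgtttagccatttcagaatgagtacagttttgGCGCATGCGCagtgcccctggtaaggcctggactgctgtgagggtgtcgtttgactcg
Psmb2: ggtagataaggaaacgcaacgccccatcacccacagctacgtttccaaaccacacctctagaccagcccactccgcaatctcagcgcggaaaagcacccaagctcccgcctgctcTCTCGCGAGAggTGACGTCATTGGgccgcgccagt
Oxa1l: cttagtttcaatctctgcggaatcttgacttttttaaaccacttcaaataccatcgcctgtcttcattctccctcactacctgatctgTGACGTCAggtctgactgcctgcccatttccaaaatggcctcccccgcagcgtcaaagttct
Of the chondrocyte markers with such a promoter, Foxa3 and Wwp2 had the highest levels in their weakest population. The bases of Foxa3, a forkhead factor of maturing chondrocytes (chr7:18757472-18757621, minus strand), hold a TATA box. They lie 874 bp from the marked region, which is the promoter of the neighboring Sympk. The bases of Wwp2, which encodes a ubiquitin ligase and hosts a cartilage microRNA (chr8:108162838-108162987, plus strand), overlap the marked region upstream of its start site and hold a TATA box on the reverse strand, a GC box and an ETS core.
Foxa3: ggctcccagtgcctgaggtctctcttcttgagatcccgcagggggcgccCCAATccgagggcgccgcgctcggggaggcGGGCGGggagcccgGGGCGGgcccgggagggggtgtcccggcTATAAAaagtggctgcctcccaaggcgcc
Wwp2: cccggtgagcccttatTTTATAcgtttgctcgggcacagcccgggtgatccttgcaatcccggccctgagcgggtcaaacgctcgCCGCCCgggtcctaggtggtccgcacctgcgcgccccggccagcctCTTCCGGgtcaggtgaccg

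The shared promoters took a large share of each peak list. They held 33.8%, 42.8%, 39.2% and 45.8% of the peak intervals of the 4 lists and covered 11.8 Mb, 36.2% of the length of all union regions. Of the 1000 intervals with the highest -log10 p in a list, 948, 929, 948 and 947 lay in them. Among the 1000 intervals with the lowest -log10 p there were 28, 68, 28 and 62. The strongest summit of a shared promoter had a median of 61, 46, 49 and 46 reads, with an interquartile range of 42 to 81, 31 to 65, 34 to 64 and 32 to 61. Distal regions that also had peaks in all 4 lists had medians of 34, 30, 30 and 27 reads, lower in every library. Promoter regions with peaks in 3 lists had medians of 28, 23, 25 and 23 reads in the lists that held them.

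The rule for naming took the 10 regions whose level in their weakest population was highest, and the 5 where it was lowest. Kmt2e had 127, 133, 140 and 142 reads, and Brd2 with H2-DMa had 133, 147, 132 and 139. Arf4, a small GTPase of the Golgi, had 159, 144, 132 and 138 reads, and Cltc, the clathrin heavy chain, had 172, 130, 151 and 136. At these 4 promoters the EGFP+ to EGFP- and limb to trunk ratios of levels stayed between 0.97 and 1.45. H4c16, a histone H4 gene, had 160, 122, 124 and 142 reads. Zc3h4, Zfp143, Hexim2 and Ubald1, also among the 10 highest, had at least 105 reads in each population. At the other end stood Elapor2 with 8, 7, 14 and 10 reads and Nceh1 with 13, 7, 13 and 18, followed by Pdzd2, Lrrc18 and Kcnd2. The smallest count of any shared promoter was 7 reads in 3 of the populations and 9 in trunk EGFP- cells.

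The summits of the 4 lists fell at nearly the same positions. The strongest summits of a pair of lists lay a median of 32 to 41 bp apart over the 12763 regions, and 74.5 to 79.5% of them lay within 100 bp. Between 2.72 and 3.78% were more than 500 bp apart. Across the regions, which share library and depth within each list, the Spearman correlation of summit reads was 0.78 to 0.88 and that of widths 0.81 to 0.88. Both were highest between the EGFP+ cells of limb and trunk.

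A shared promoter region had a median width of 847 bp (interquartile range 614 to 1171 bp), from 227 to 3127 bp. Regions over 1 kb made up 36.6%, and 152 regions were wider than 2 kb. Distal regions with peaks in all 4 lists had a median width of 845 bp. Promoter regions with peaks in 1, 2 or 3 lists had medians of 251, 391 and 467 bp. A union of more intervals is wider by construction, so the width within single lists was compared as well. It was 735, 636, 693 and 640 bp in the shared promoters and 646, 561, 592 and 510 bp in the shared distal regions. In promoter regions with peaks in 3 lists it was 369, 312, 326 and 304 bp. Limb EGFP+ intervals were the widest of the 4 in 44.1% of shared promoters and had the highest level in 78.1%. Within a list, width followed the number of summits (Spearman 0.76 to 0.78) more closely than the reads at the strongest one (0.46 to 0.52).

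**Figure D1:**
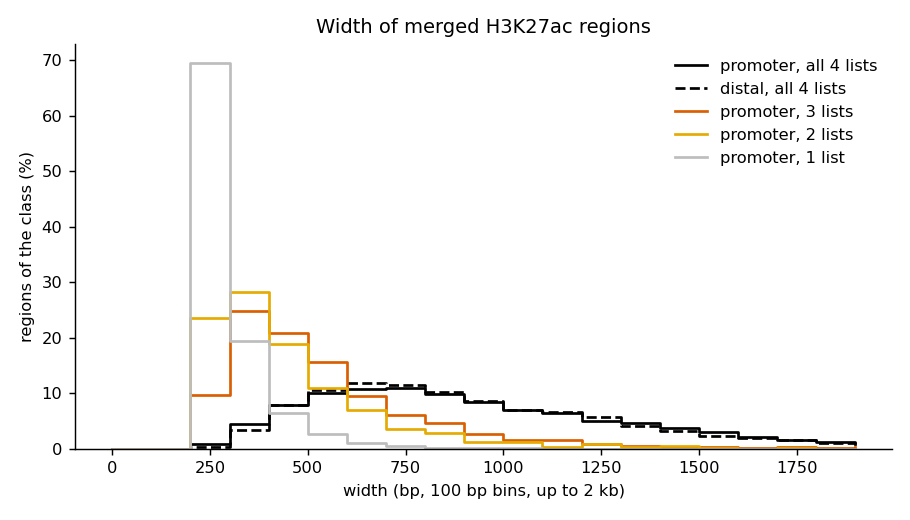
Width of merged H3K27ac regions in bp (x axis, 100 bp bins up to 2 kb) against the percentage of regions of each class (y axis), for promoter regions with peaks in all 4, 3, 2 or 1 lists and for distal regions with peaks in all 4. The curves of shared promoters and shared distal regions lie close together, with medians of 847 and 845 bp, and regions of fewer lists are narrower.

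The widest region, 3127 bp with 21 summits over the 4 lists, lay at Rtkn and had 136, 100, 103 and 90 reads. The region at Pakap, 2913 bp, had 73, 36, 60 and 33 reads, so that both EGFP+ populations stood above both EGFP- populations. Serpinh1, the collagen chaperone HSP47, had a region of 2745 bp with 117, 98, 109 and 95 reads, and Trip6, a zyxin family adaptor, one of 2686 bp with 118, 128, 100 and 102. Mindy1 and Prune1 shared a region of 2860 bp. Il11ra1, the receptor chain for interleukin 11, had the most summits, 24 over the 4 lists, followed by Mpp2 and by the shared region of Kdm5a and Ccdc77 with 22 each. The narrowest, 227 bp at the phosphatase gene Ppp2ca, had 62, 43, 49 and 44 reads. E2f8, Maz, N4bp2 and Ptprg came next, with 232 to 244 bp and 1 summit in each list.

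A single summit per list was the most frequent form. In the 4 lists 53.0%, 56.5%, 51.5% and 54.4% of shared promoters had 1 summit, 31.3%, 29.4%, 31.1% and 30.7% had 2, and the rest had up to 7, 6, 8 and 7. In limb EGFP- cells 14.05% of regions were broken into more than 1 interval, against 7.97%, 10.7% and 9.75% in the other lists.

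Summit positions were described for the 10822 regions that overlapped the promoter window of 1 gene only, as the distance to the start site of the gene's canonical transcript. The strongest summit lay a median of 220 bp into the gene in limb EGFP+ cells (interquartile range 247 bp upstream to 488 bp downstream), and 213, 229 and 218 bp in the other 3 lists. Between 62.3 and 65.3% of strongest summits were downstream of the start site, and only 3.67 to 4.62% came within 100 bp of it. Over all summits the profile had a maximum on each side. It was highest in the bin from 250 to 200 bp upstream and in the bin from 200 to 250 bp downstream in limb cells or 150 to 200 bp downstream in trunk cells. The lowest bin near the start site reached from 50 bp upstream to the start site itself and held 138, 152, 121 and 129 summits, against 954, 761, 863 and 929 in the highest downstream bin, 5.01 to 7.20 times as many. The 4 lists shared this shape. Beyond the upstream maximum the profile fell off steeply, while downstream it had a shoulder that reached past 500 bp. More than 500 bp downstream, at any distance, lay 23.99 to 26.5% of the strongest summits. Any annotated start site could place a region in the set. In either direction, 6.30 to 6.39% of strongest summits lay over 2 kb from the canonical one.

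**Figure D2:**
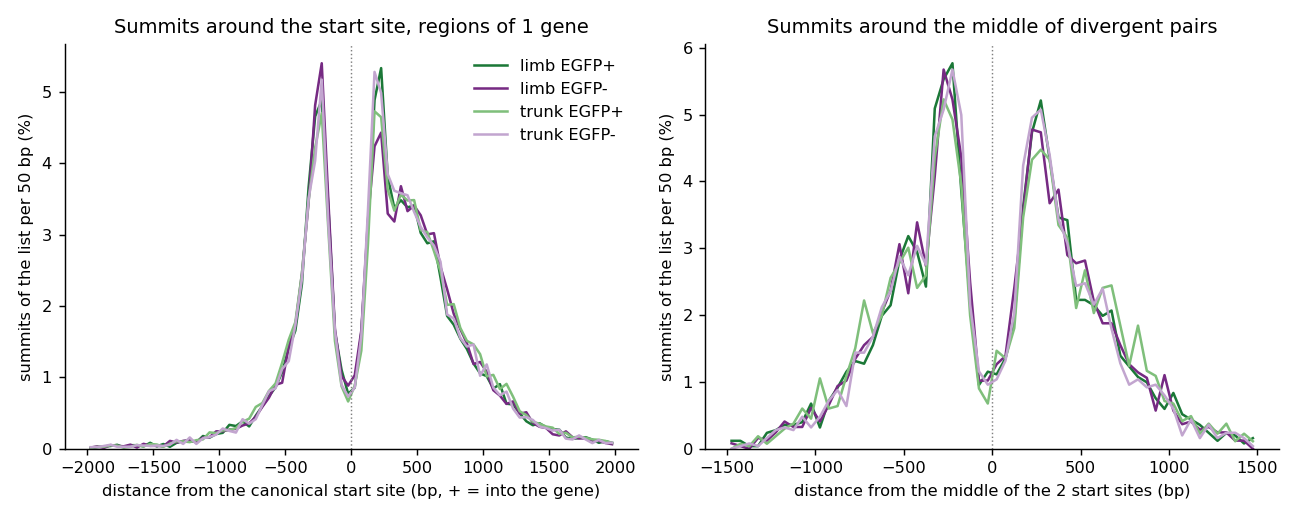
Share of summits per 50 bp bin (y axis, percent of each list) against the distance in bp from the canonical start site for the 10822 regions of 1 gene (left) and from the middle between both start sites for the 1424 regions at divergent pairs (right), 1 line per population. All 4 lines have a maximum on each side of the middle and a minimum at it, and in the left panel the downstream side is the broader one.

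In terms of the canonical transcript, 39.7 to 40.9% of strongest summits fell in the first intron, 18.3 to 21.5% in the first exon, and 34.6 to 37.7% upstream of the start site. Later exons and introns held 4.10 to 4.56%. The region itself covered the start site in 3653 cases (33.8%), with a median width of 1128 bp. In 2830 cases (26.2%, median width 616 bp) it lay wholly upstream, and in 4339 (40.1%, median width 840 bp) wholly downstream. Several regions could belong to 1 gene. Of 10199 genes with a shared promoter region, 6153 had 1 such region, 3575 had 2, 402 had 3 and the rest had up to 6. Among the genes with 2, the regions flanked the canonical start site in 2053 (57.4%), with a median gap of 277 bp between them (interquartile range 173 to 475 bp).

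The set depended on the window edge at few regions. Of the 12763 regions, 276 overlapped the window by 100 bp or less, and 190 distal regions with peaks in all 4 lists lay within 100 bp of it. The regions at Serp2, Dchs1, Rnf149, Gnai1 and Oaz2 were inside by 1 to 5 bp, and those near Tcp11l1, Cmip, Tex261, Irs2 and Rai1 missed it by 1 bp. Serp2 had 60, 51, 49 and 24 reads and Dchs1 had 41, 29, 26 and 30, while outside Tcp11l1 had 40, 18, 28 and 19 and Cmip had 48, 50, 48 and 63. In 12421 of the 12763 regions each of the 4 lists had an interval of its own in a promoter window.

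Divergent pairs, in which a minus-strand and a plus-strand gene start head to head at most 1000 bp apart, were found in 1424 shared regions. This was 11.2% of the set (exact 95% interval 10.6 to 11.7%, which like all intervals here covers counting error only). In promoter regions with peaks in 1, 2 or 3 lists the share was 2.08% (1.62 to 2.63%), 3.34% (2.60 to 4.23%) and 4.64% (3.73 to 5.70%). A wider region can reach more windows, which the shares do not take into account. Seen from the genes, the annotation held 1109 such pairs. Both genes had a shared promoter region in 972 of them (87.6%, 85.6 to 89.5%), 1 gene in 32 and neither in 105. Of the 2182 genes in pairs 1941 (89.0%, 87.6 to 90.2%) had a shared promoter region, against 8258 of 19399 other protein-coding genes (42.6%, 41.9 to 43.3%). The promoter windows of a pair overlap, so 1 region often counts for both genes. Few pairs with only 1 such gene therefore follow in part from the windows. The shares do not take this into account, and the interval of the 89.0% treats paired genes as independent.

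Over the 1424 regions, which held 938 different pairs, the start sites of a pair were close together. Their median distance was 75.5 bp (interquartile range 34.0 to 165 bp), and in 86.5% of the regions they were at most 300 bp apart. The strongest limb EGFP+ summit lay outside the pair on the minus-strand side in 696 regions and on the plus-strand side in 670, and between the start sites in 58 (4.07%). Summits on both sides of the start site or sites were found within 1 region in 21.4% of divergent regions and in 16.1% of regions of 1 gene. Divergent regions had a median width of 900 bp and a median limb EGFP+ level of 52.3 times background, against 836 bp and 38.9 for regions of 1 gene. The strongest pairs after Brd2 with H2-DMa were Tkfc with Ddb1, start sites 19 bp apart, with 120, 114, 114 and 119 reads, and Slc39a7 with Rxrb, 123 bp apart, with 134, 148, 118 and 118 reads. Ddb1 encodes a DNA damage-binding subunit of ubiquitin ligases, Slc39a7 a zinc transporter and Rxrb a retinoid X receptor. 1700028J19Rik with 2410002F23Rik, and Arpc4, an Arp2/3 subunit, with Tada3, an acetyltransferase adaptor, both had start sites 27 bp apart and 106 to 146 reads in each list.

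At the level of genes, 10199 of 21581 protein-coding genes had a promoter region marked in all 4 populations, a background of 47.3%. No promoter peak was found in any list for 8907 genes, and 2475 had promoter regions with peaks in 1 to 3 lists only. Gene classes were compared with the share of 47.3%. Since the set was chosen by peak presence, the shares describe which genes it holds. Some regions served several genes, and 7791 genes had a region that no other protein-coding gene shared. By chromosome the share ran from 40.2% on chromosome 7 to 53.8% on chromosome 12, with 34.7% (31.7 to 37.8%) on X and 1 of 154 genes on Y.

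Several classes of basic cell machinery were fully or almost fully covered. All 78 genes of mitochondrial ribosomal proteins, all 37 aminoacyl-tRNA synthetase genes, all 30 subunit genes of RNA polymerases I, II and III and all 31 Mediator subunit genes had a shared promoter region. So did all 20 replication licensing and origin genes and all 8 genes of the chaperonin CCT. Cytosolic ribosomal protein genes followed with 81 of 84 (96.4%, 89.9 to 99.3%). The 3 without were Rpl10l and Rpl3l, with no peak in any list, and Rpl39l, with a peak in 1 list, all paralogs of genes in the set. Spliceosome proteins reached 46 of 48, without Sf3b5 and Srsf19, and proteasome subunits 36 of 39. Psmb11 and Psmb8, which are subunits of the thymoproteasome and the immunoproteasome, had no promoter peak, and Psma8, a testis subunit, had one in 1 list. Respiratory complex I and ATP synthase reached 55 of 56, all but Atp5po. Some of the leading promoters are given with their reads. Rpl13a had 127, 98, 103 and 100 reads, Mrpl17 131, 97, 104 and 93, Polr2a, the largest subunit of RNA polymerase II, 126, 112, 87 and 89, Srsf5, a splicing factor, 123, 106, 120 and 134, and Psmb2 118, 98, 105 and 105.

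Some genes of this machinery share a region. Fau, a ubiquitin-like fusion with ribosomal protein S30, and Mrpl49 start 3 bp apart and share a region with 104, 92, 105 and 102 reads, the highest of the cytosolic ribosomal protein genes in the weakest population. Mrps12 and Sars2, a mitochondrial ribosomal protein and the mitochondrial seryl-tRNA synthetase, start 129 bp apart and share 101, 133, 99 and 104 reads. Across the 77 regions of mitochondrial ribosomal proteins the median reads were 72, 56, 57 and 57, against 64, 50, 52 and 49 over one region for each of the genes in the set.

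Translation initiation and elongation factors reached 61 of 87 (70.1%, 59.4 to 79.5%), with 22 genes without any promoter peak. Eif4a2, an RNA helicase of initiation, led them with 147, 123, 118 and 117 reads. V-type ATPase subunits reached 16 of 25, tubulins and actins 16 of 29, and replication-dependent histones 40 of 67, whose clustered genes shared 23 regions. Actb had 135, 110, 128 and 113 reads in a region of 417 bp, and Tuba1b had 119, 83, 101 and 114. Zinc finger genes named Zfp reached 330 of 417 (79.1%, 74.9 to 82.9%), with Zfp143 at 140, 131, 118 and 127 reads. Nuclear pore proteins reached 26 of 29, with no promoter peak at Nup210, Nup210l and Nup50l. Glycolysis enzymes reached 14 of 16, with peaks in 3 lists at Aldoc and 2 at Pfkp. Their 14 regions had a median width of 1470.5 bp, the widest of the classes with at least 5 regions, and Ldha had 142, 114, 109 and 92 reads. Immediate early genes, which are also induced when tissue is dissociated, reached 17 of 21, led by Klf6 with 132, 161, 95 and 97 reads and Jun with 112, 104, 76 and 86. Junb, Jund and Egr3 had promoter peaks in 3 lists and Fosl1 in none. The median ratio of EGFP+ to EGFP- levels at immediate early genes was 1.29 in limb and 1.01 in trunk, and the part of dissociation in any value was not tested.

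**Figure D3:**
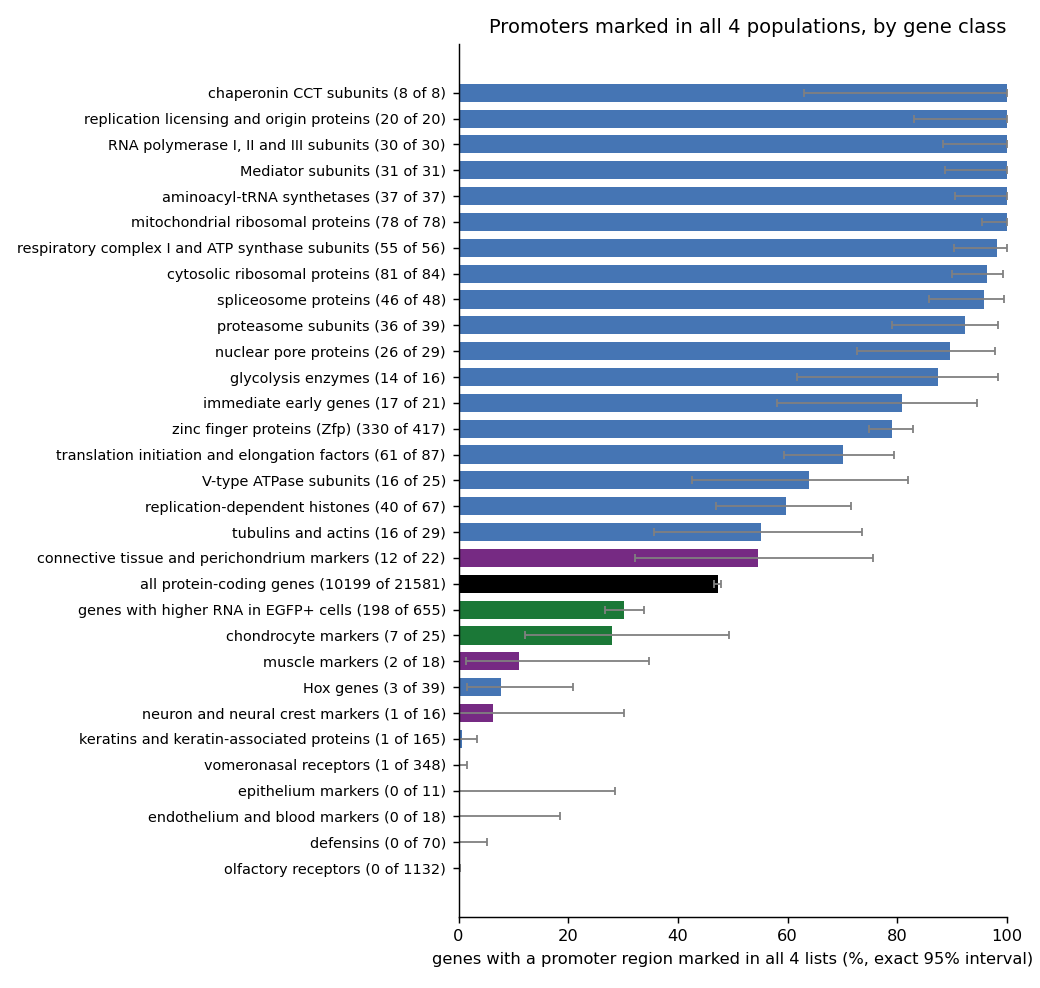
Percentage of the genes of each class with a promoter region marked in all 4 lists (x axis, exact 95% interval), with counts beside the names. The black bar is the share over all protein-coding genes, 47.3%, green bars are chondrocyte lists, and purple bars are markers of other cell types. Mitochondrial ribosomal proteins, RNA polymerase and Mediator subunits are at 100%, V-type ATPase subunits at 64%, connective tissue and perichondrium markers at 54.5%, and olfactory receptors at 0.

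Of 25 chondrocyte markers 7 had a shared promoter region (28%, 12.1 to 49.4%). A promoter peak was found at 24 of the 25 in limb EGFP+ cells and at 22 in trunk EGFP+ cells, and at 9 and 8 in the limb and trunk EGFP- cells. Col2a1 itself, the gene behind the sensor, missed the set by 1 list. Its promoter regions peaked at 110 reads in limb EGFP+, 14 in limb EGFP- and 84 in trunk EGFP+ cells, without a peak in trunk EGFP- cells. Acan, the cartilage proteoglycan aggrecan, peaked at 70 and 53 reads in EGFP+ cells alone, and Col9a1, a collagen of cartilage fibrils, at 90 and 63. Fgfr3 and Sox5 also had peaks in both EGFP+ lists only. Foxa2 had no promoter peak, and Ihh and Runx3 had one in limb EGFP+ cells.

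Of 18 muscle markers 2 were in it, Mef2c and Tnnc1, and the region of Tnnc1 was shared with Nisch. The paper also finds binding sites of MEF2C and MEF2D enriched in its putative chondrogenic enhancers, so Mef2c need not stand for muscle here. Myod1, Myf5, Actc1, Ttn and Acta1 had no promoter peak in any list. A promoter peak was found at 4 of the 18 in each EGFP- list and at 3 in each EGFP+ list. Among 18 endothelium and blood markers and 11 epithelium markers none was in the set, and 16 and 9 of them had no promoter peak at all. Of 16 neuron and neural crest markers Elavl4 was in it, at 16, 8, 22 and 21 reads. Defining markers of these cell types were mostly without a promoter peak in the EGFP- lists, although the EGFP- sort holds such cells. Connective tissue and perichondrium markers reached 12 of 22 (54.5%, 32.2 to 75.6%). Tcf4 had 85, 95, 57 and 65 reads, Sox4 73, 60, 53 and 63, and Foxp1, a perichondrium factor, 48, 72, 59 and 58. The Tcf4 counted among the 12 is the gene on chromosome 18, which the text of the paper does not name as a marker of these tissues. Of 39 Hox genes 3 were in the set, Hoxa3, Hoxa4 and Hoxa10, while 23 had promoter peaks in 1 to 3 lists. No olfactory receptor gene of 1132 was in it (exact upper limit 0.325%), nor any of 70 defensins. Among 348 vomeronasal receptor genes Vmn1r4 was, through a region shared with Nt5c3, and among 165 keratin genes Krt10 was.

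Base composition, which the rule did not use, differed between the genes of the set and the others. In the 300 bp from 250 bp before to 50 bp after the canonical start site, genes with a shared promoter region had a median of 19 CpG dinucleotides, those with peaks in 1 to 3 lists 11, and those without a promoter peak 3. The median GC content was 58.7%, 56.7% and 48.0%. A promoter was called CpG-rich where GC content was at least 50% and the observed to expected CpG ratio at least 0.6. This held for 65.3% (64.4 to 66.3%) of genes of the set, 37.3% (35.3 to 39.2%) of genes with 1 to 3 lists and 10.9% (10.2 to 11.5%) of genes without a peak. In the other direction, 77.9% of 8553 CpG-rich genes and 27.1% of 13028 other genes had a shared promoter region. Among the regions of 1 gene, those of CpG-rich promoters were narrower, with a median of 793 bp against 935 bp. Their lowest level over the 4 populations had a median of 22.4 times background, against 20.2.

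The TATA box was less frequent in the set. It was found in 7.36% (6.86 to 7.89%) of its promoters, 20.7% (19.9 to 21.6%) of promoters without a peak and 13.2% of all 21581. Among CpG-rich promoters the difference was smaller, at 4.82% (4.32 to 5.36%) of the set and 6.56% (5.49 to 7.77%) of the others. Among the rest the TATA box was found in 12.2% of the set and 20.7% of the others. GC boxes were found in 61.3% of the set, 19.2% of promoters without a peak and 42.6% of all. Among CpG-rich promoters they were found in 74.2% of the set and 75.7% of the others, and among the rest in 36.8% (35.2 to 38.4%) of the set and 16.1% (15.3 to 16.8%) of the others. The CCAAT box differed little between the set and promoters without a peak, at 40.8% and 39.8%, with 39.8% of all promoters. Among CpG-rich promoters it was found in 40.2% (39.0 to 41.4%) of the set and 33.5% (31.4 to 35.7%) of the others. Among the rest it was found in 42.0% of the set and 40.0% of the others. The ETS core stood in 18.2% (17.5 to 19.01%) of the set, 2.78% (2.45 to 3.15%) of promoters without a peak and 10.3% of all, and the YY1 core in 2.66%, 0.135% and 1.33%. For the NRF1 core the shares were 3.92%, 1.179% and 2.45%, and for the ZBTB33 core 1.49%, 0.213% and 0.816%. Within CpG-rich promoters alone the ETS core was found in 22.3% of the set and 6.14% of the others, the YY1 core in 3.33% and 0.265%, the NRF1 core in 5.04% and 1.64%, and the ZBTB33 core in 2.09% and 0.847%. The cAMP response element was in 3.79% of the set, 1.11% of promoters without a peak and 2.46% of all, the E-box in 10.6%, 4.65% and 7.83%, and the ZFP143 core in 4.96%, 3.11% and 3.82%. The SOX half-site was in 1.90% of the set, 4.45% of promoters without a peak and 2.96% of all. Among CpG-rich promoters the SOX half-site hardly differed, at 1.53% of the set and 1.38% of the others. The E-box was at 12.2% and 11.6% there. Among the remaining promoters the SOX half-site was in 2.60% of the set and 4.41% of the others, and the E-box in 7.72% and 4.07%. Such matches are letters in a window, and no binding was measured at them.

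**Figure D4:**
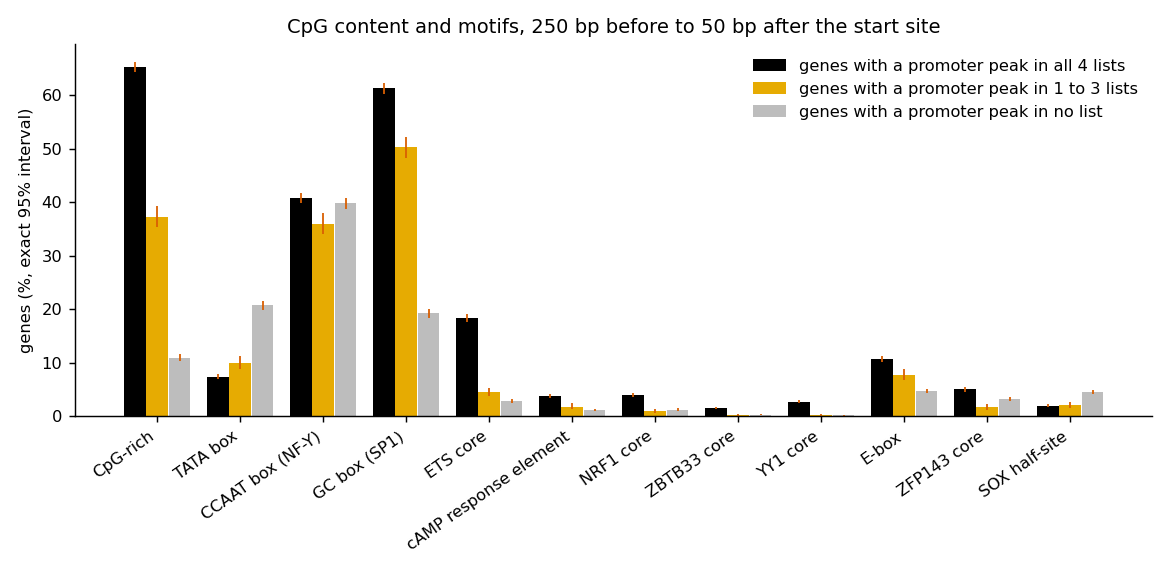
Percentage of genes (y axis, exact 95% interval in orange) with a CpG-rich promoter and with each motif in the 300 bp around the canonical start site, for genes with a promoter peak in all 4 lists, in 1 to 3 lists and in none. The CpG-rich share falls from 65.3% to 10.9% across these groups, and the TATA box rises from 7.36% to 20.7%.

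Levels were then compared between populations. Ratios are level divided by level, and a peak in all 4 lists was required, which bounds how low any level can be. Over the 12763 regions the median ratio of EGFP+ to EGFP- cells was 1.36 in limb and 1.19 in trunk, and that of limb to trunk was 1.33 in EGFP+ and 1.16 in EGFP- cells. All regions with peaks in all 4 lists were shifted by 0.42, 0.26, 0.39 and 0.23 on the log2 scale in the same ratios, and values divided by these medians are called centered. Of the shared promoters 4237 (33.2%) stayed within 1.5 times in all 4 ratios without centering.

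EGFP+ levels were at least 2 times the EGFP- levels in both tissues at 237 shared promoters, 1.86% (1.63 to 2.11%). The background among all regions with peaks in all 4 lists was 2.69%, and among distal regions it was 5.50% (4.79 to 6.27%). After centering the count was 76 (0.596%, against 1.02% of all such regions), and all 76 were among the 237. The deposited fold over the local background gave 1 region, none of the 237. The local background moved with the reads. At the 237 regions its median ratio of EGFP+ to EGFP- cells was 2.26 in limb and 1.92 in trunk, beside 1.27 and 1.15 over all shared promoters. The median ratio of deposited folds at the 237 was 1.32 in limb and 1.365 in trunk, above 1 at 82.7% and 85.7% of them. It was above 1 in both tissues at 182 of the 237 and below 1 in both at 20.

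Cthrc1, which encodes a secreted glycoprotein of matrix-forming cells, differed most. It had 96 reads in limb EGFP+, 12 in limb EGFP-, 62 in trunk EGFP+ and 11 in trunk EGFP- cells. Both EGFP+ values stood far above both EGFP- values, with ratios of 8.74 (exact counting interval 4.78 to 17.5) in limb and 6.44 (3.36 to 13.6) in trunk. The local background at its summit was 17.1, 2.56, 9.72 and 3.24 reads. Vill, a villin-like gene, had 84, 14, 73 and 13 reads, with ratios of 6.55 and 6.42. At an internal promoter far downstream of the printed bases, Wwp2 had 112, 25, 88 and 18 reads, with ratios of 4.89 (3.15 to 7.88) and 5.59 (3.34 to 9.86). The regions on either side of its first start site had 58, 33, 37 and 25 and 82, 47, 63 and 58 reads. Nfatc2, a calcium-regulated transcription factor gene, had 105, 24, 94 and 19 reads. Ccdc57 and Slc16a3, the lactate exporter gene MCT4, shared a region with 117, 27, 64 and 15 reads. Fgfr2, an FGF receptor gene, had 98, 26, 94 and 26 reads, with ratios of 4.12 (2.65 to 6.61) and 4.13 (2.65 to 6.65). In each of these regions the EGFP+ counts did not overlap the EGFP- counts, which mostly follows from their choice by this ratio. Arhgef19, Unc5c, Hapln1, Ndrg2, Septin5 and Sorbs2 completed the 12 highest, with ratios of 3.43 to 7.43 in either tissue. Each of the 12 stayed above 2 in both tissues after centering. The deposited fold over the local background gave another picture at some of them. At the internal Wwp2 promoter the local background was 48.9, 6.58, 44.9 and 5.2 reads, and the fold was lower in EGFP+ than in EGFP- cells, 2.27 against 3.43 in limb and 1.94 against 3.06 in trunk. Of the 12, Hapln1 was also lower by fold in both tissues, Unc5c and Fgfr2 in limb and Ndrg2 and Sorbs2 in trunk.

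The 7 chondrocyte markers of the set had EGFP+ to EGFP- ratios of levels of 1.76 to 5.46 in limb and 1.24 to 4.10 in trunk. Their deposited folds went the other way, lower in EGFP+ cells at 5 of the 7 in limb and at all 7 in trunk, beside a higher local background in EGFP+ cells. At Sox9 the local background was 34.9, 6.7, 28.4 and 7.2 reads and the fold 2.90, 4.68, 2.83 and 5.49, and at Sox6 the fold was 2.04, 3.34, 1.67 and 3.93. The direction at these markers thus depends on which background the reads are set against. The local background is counted in the same library, in a 10 kb window around the summit. Mark around the promoter is therefore part of it, and a lower fold does not by itself mean less mark. Hapln1, the link protein of cartilage matrix, had 85, 17, 61 and 17 reads. Sox9, the master factor of chondrogenesis, had 103, 35, 82 and 44, with ratios of 3.21 (2.17 to 4.86) and 2.13 (1.46 to 3.15). Col11a1, a cartilage fibril collagen, had 80, 30, 69 and 21 reads, with ratios of 2.91 and 3.76. Sox6 had 75, 20, 49 and 31 reads and Pth1r, the receptor for parathyroid hormone-related protein, 61, 25, 45 and 27. Wwp2 and Foxa3, the latter through the region shared with Sympk, were at 1.91 and 1.76 in limb and 1.24 and 1.53 in trunk, within 1.5 times of the median of all regions after centering. Hapln1, Sox9 and Col11a1 passed 2 in both tissues, and of these Hapln1 and Col11a1 did so after centering.

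Genes with higher RNA in EGFP+ cells form a list that the study chose from RNA-seq of such cells, so it is no independent evidence of a direction. The list held 779 genes, and 655 of them were found in the annotation. These are not the 655 genes that the paper counts as shared by limb and trunk. Of the 655 found here 198 (30.2%, 26.7 to 33.9%) had a shared promoter region, 289 had promoter peaks in 1 to 3 lists and 168 had none. At their 197 regions the median ratio of EGFP+ to EGFP- was 2.04 in limb and 1.77 in trunk, beside 1.35 and 1.177 over one region for each gene of the set. The 2-fold criterion was met in both tissues by 59 of the 197 (29.9%), beside 154 of 8946 (1.72%) over one region for each gene of the set, and after centering by 29 (14.7%), beside 50 (0.559%). The 3 genes with the smallest ratios are named here. Nacc2 had 24, 41, 36 and 40 reads and Dipk2a 61, 44, 34 and 55, and the region of Gm8113 and Ear10 had 25, 51, 33 and 54.

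**Figure D5:**
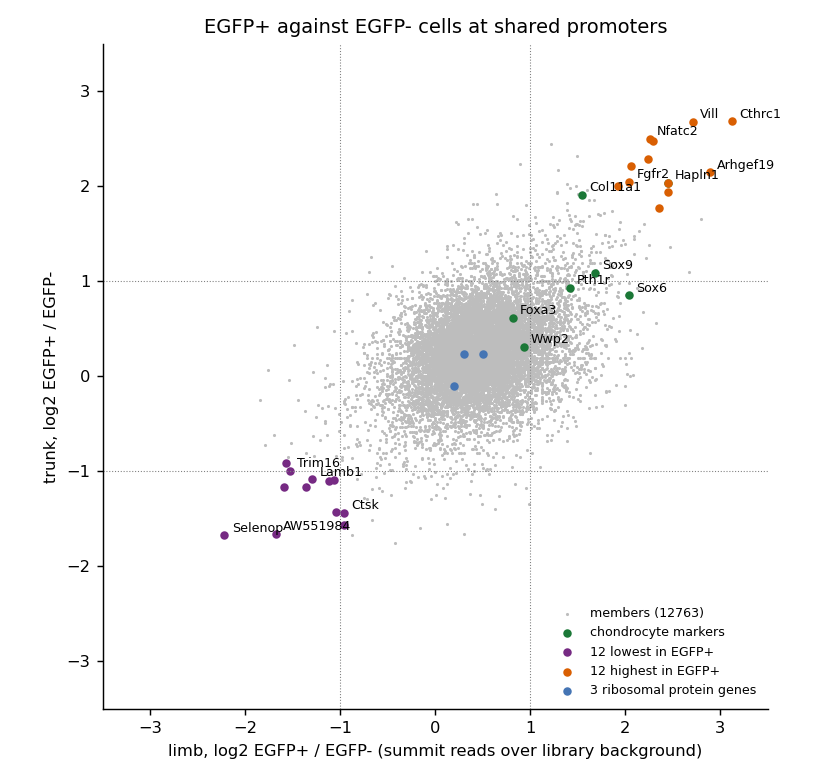
log2 ratio of EGFP+ to EGFP- levels in limb (x axis) and trunk (y axis) for the 12763 shared promoters, with dotted lines at 2-fold. Colored points are the chondrocyte markers, the 12 regions highest and the 12 lowest in EGFP+ cells of both tissues, and 3 ribosomal protein genes. The cloud is shifted to the upper right of 0, Cthrc1 at 8.74 and 6.44 is farthest to the upper right, and Selenop at 0.215 and 0.314 farthest to the lower left.

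The opposite direction was met less often. EGFP- levels were at least 2 times the EGFP+ levels in both tissues at 8 shared promoters, 0.0627% (0.0271 to 0.123%), against a background of 0.157% and 18 of 3785 shared distal regions. After centering there were 35 (0.274%, against 0.550% of all regions with peaks in all 4 lists), the 8 included. Selenop, the gene of the plasma selenium carrier, had 11, 56, 14 and 51 reads, with ratios of 0.215 (0.101 to 0.414) and 0.314 (0.160 to 0.576). The predicted gene AW551984 had 10, 35, 10 and 36 reads. Lamb1, a laminin chain of basement membranes, had 19, 51, 19 and 46 reads, although its deposited fold in trunk was higher in EGFP+ cells, 5.78 against 4.27, and Adam19, a membrane metalloprotease, 16, 45, 21 and 54. Cd1d1, a lipid antigen-presenting molecule, had 14, 46, 16 and 41 reads. In all 5 the EGFP- counts stood above the EGFP+ counts in both tissues, which follows from their choice by this ratio. Rgl1, Svep1 and Atosa were the others. Trim16, Ctsk, the osteoclast protease cathepsin K, Kcnn2 and Zfp811 came next, each past 2 in 1 tissue only. Ctsk had 15, 32, 10 and 31 reads.

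Limb levels were at least 2 times trunk levels in both fractions at 27 shared promoters, 0.212% (0.139 to 0.308%), against a background of 0.314%. After centering none remained. Hoxa10, a posterior Hox gene, had 110, 73, 45 and 36 reads, with ratios of 2.63 (1.84 to 3.80) in EGFP+ and 2.28 (1.51 to 3.5) in EGFP- cells. Centered, they were 2.01 and 1.95. The deposited fold was 3.45 in limb and 3.89 in trunk EGFP+ cells, and 4.02 and 3.78 in EGFP- cells, so that the direction turned in EGFP+ cells. Syt11, a synaptotagmin gene, had 58, 32, 26 and 13 reads, and Creb5, a CREB family transcription factor gene, 63, 59, 29 and 28. By deposited fold Creb5 was lower in limb than in trunk EGFP+ cells, 4.17 against 4.64. Mypop, Mrpl45 and Sf1 were the others of the 6 highest.

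Trunk levels were at least 2 times limb levels in both fractions at 1 shared promoter, 0.00784%, against a background of 0.0181%. After centering there were 7 (0.055%, against 0.060% of all regions with peaks in all 4 lists). The 1 promoter without centering belonged to Meis2, a TALE homeobox gene, with 17, 22, 41 and 65 reads. Its ratios were 0.446 (0.237 to 0.802) and 0.381 (0.223 to 0.626). The local background there was 3.48, 7.76, 19.2 and 23.9 reads, and the deposited fold 4.02, 2.63, 2.08 and 2.65, so that by fold limb was higher in EGFP+ cells and EGFP- cells hardly differed. Its relative Meis1 had 18, 34, 63 and 73 reads, with ratios of 0.307 and 0.524, and folds of 3.14, 2.64, 2.67 and 2.37, higher in limb in both fractions. Hoxa4 had 13, 15, 38 and 27 reads, trunk above limb in both fractions, while Hoxa3 had 77, 35, 87 and 53, with EGFP+ above EGFP- in both tissues. Lamp1, Tenm3, Clybl and the shared region of Ermardl2 and Dynlt2a3 were between 0.490 and 0.554 in both fractions. No shared promoter was at least 2 times higher in EGFP+ cells of 1 tissue and at least 2 times lower in EGFP+ cells of the other.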

How the data were processed

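H3K27ac ChIP-seq peak lists of 4 sorted populations, 1 library each, were analysed. According to the methods and the submitters' processing notes, the authors sampled a similar number of reads per library with Seqtk, trimmed them with cutadapt 1.18, mapped them to GRCm39 with Bowtie2 2.3.5.1, filtered them for mapping quality with SAMtools, and called peaks per library with MACS2 2.2.7.1 with reads extended to 200 bp. No control library is named, so that the background comes from the same library. Equal sampling means that a value states a share of a library, not an amount of mark. The deposited files hold, for each summit, a score, a fold (ratio) of the summit over the local background, the -log10 p and -log10 q of that summit, and the offset of the summit from the interval start in bp. The score was not used.

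Summits of 1 interval were joined, and the intervals of all lists were merged on the 19 autosomes and both sex chromosomes. Start sites came from GENCODE M39. Whole reads at a summit were recovered as the pair of read count and background that gives the deposited fold and -log10 p. A -log10 p within 0.001 of the deposited one counted as recovered, and this step was tested on simulated data. Levels are reads over the library-wide background of 1.49 to 1.83 reads. Shares carry exact Clopper-Pearson 95% intervals, and ratios exact binomial intervals of both counts. With 1 library per population no test was made. The smallest summits rest on 7 reads, where a ratio of 2 is within counting error.

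The regions, gene lists and comparisons were chosen with earlier results of these data known. The rule named the widest, narrowest, strongest and weakest regions, those with the most summits, the strongest divergent pairs, the regions nearest the window edge, the 12 largest and smallest EGFP+ to EGFP- ratios, the 6 largest and smallest limb to trunk ratios, and the 3 strongest genes of each list. One region that the rule names is not reported here. A gene list was described by its counts and medians beside those of all genes. The muscle, epithelium, endothelium and blood, neuron and connective tissue markers were listed to show which other cell types the sort could hold. Alternatives were a -log10 q of at least 5, the 20000 intervals of highest -log10 p, an own interval of each list at the window, 1 start site per gene, autosomes alone, shorter distances between divergent starts, other summits and start sites, centered ratios, deposited folds, widths, and 1.5 times. Motif matches and CpG counts were computed over 21581 promoters of 300 bp. The printed sequences come from the GRCm39 genome, and a RefSeq promoter table of another build was not used here. Sequences were read with samtools 1.23.1 and pysam 0.24.0, intervals computed with scipy 1.17.1, tables handled with pandas 2.3.3 and numpy 2.4.6, and plots drawn with matplotlib 3.10.9, all under Python 3.11.15.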

Additional observations from a re-analysis of the deposited data

Results flagged for a closer look

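Summits outside chromosomes 1 to 19, X and Y were not used in any comparison. There were 47 in limb EGFP+, 57 in limb EGFP-, 55 in trunk EGFP+ and 63 in trunk EGFP- cells. They are listed because they are signal in data that the comparisons left out, and there were no control samples to set them against.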

How the results depend on the processing

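Under the deposited fold, 16 ratios turned their direction among the named regions that were called at least 2 times different. Some named regions that were not called turned as well. The EGFP+ to EGFP- ratio at Sox6 became 0.611 in limb and 0.425 in trunk. At Meis1 the limb to trunk ratio became 1.175 in EGFP+ and 1.112 in EGFP- cells. The ratios of the called regions follow. The limb EGFP+ to EGFP- ratio became 0.66 at the internal Wwp2 promoter, 0.966 at Unc5c, 0.817 at Fgfr2, 0.82 at Hapln1, 0.619 at Sox9 and 0.619 at Col11a1. The trunk ratio became 0.633 at Wwp2, 0.733 at Hapln1, 0.842 at Ndrg2, 0.835 at Sorbs2, 1.353 at Lamb1, 0.515 at Sox9 and 0.795 at Col11a1. The limb to trunk ratio in EGFP+ cells became 0.897 at Creb5, 0.888 at Hoxa10 and 1.932 at Meis2. Centering turned none of the called named regions. The number of shared promoters and of genes with one stayed within 1.5 times under each of them. With a -log10 q of at least 5 the median width was 882 bp, the divergent share 12.05%, and the counts of regions at least 2 times higher in EGFP+, EGFP-, limb and trunk cells were 128, 4, 15 and 0. When each list was reduced to its 20000 strongest intervals these values were 894 bp, 12.3%, and 121, 1, 12 and 0. The divergent share was 6.46% with 1 start site per gene, and 10.3% and 9.65% for start sites at most 500 and 300 bp apart. The median summit position was 211 bp with an own interval of each list at the window, 196 bp with 1 start site per gene, 213 and 229 bp in limb EGFP- and trunk EGFP+ cells, 322.5 bp from the outermost 5′ end and 242 bp over all summits. The 4 counts were 76, 35, 0 and 7 for centered ratios, 1, 1, 0 and 0 for deposited folds, 109, 17, 13 and 6 for widths, and 1373, 50, 829 and 13 at 1.5 times. The local background moved with the reads, and the cause was not tested. No paired analysis was possible because each population has 1 library. For the same reason no replicate could be left out. Counts of 7 to 20 reads leave ratios near 2 within counting error.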
